A study of Mus musculus with 2 samples.

Results

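The genes described here encode the classical axon guidance cues and their receptors: semaphorins of classes 3 to 7, plexins and neuropilins, ephrins and Eph receptors, and Slits and Robos. The families were chosen with earlier results of these data known. Within them, every probe of the array was taken by its deposited gene name alone, and no measured value entered this step. This gave 86 of the 39429 probes, for 59 of 30011 gene names, each probe being printed as 4 spots. Of them, 79 probes and 57 genes passed the filter on dim probes (on each array, 2 or more of the 4 spots well above background in either channel). Epha6 and Robo3 had no probe past the filter.

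RNA came from ureters dissected from NMRI mouse embryos at E14.5 and was compared on 2 Agilent arrays with 2 colours. Each array held RNA of Rbpj-cKO ureters, genotype Tbx18(cre/+);Rbpj(fl/fl), against RNA of control ureters, labelled Rbpj(fl/?). The labels do not say which second Rbpj allele the controls carried, whether they carried Cre, or from how many embryos each RNA was taken. The Cre recombinase is expressed from the Tbx18 locus, so the Rbpj-cKO embryos have 1 Tbx18 allele with Cre, and cells that neither express Tbx18 nor descend from cells that did keep Rbpj. Replicate 1 was male, with Rbpj-cKO in AlexaFluor647 (red) and control in AlexaFluor555 (green). Replicate 2 was female, with the dyes exchanged. A difference between the arrays can therefore go with sex, with dye or with the individual samples, and these cannot be told apart.

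Semaphorins, ephrins and Slits are cues that growing axons, migrating cells and sprouting vessels read through surface receptors. Class 3 semaphorins are secreted and bind neuropilins, which signal through plexins, whereas most semaphorins of classes 4 to 7 are held at the membrane and bind plexins directly. Ephrins are membrane-bound and act at cell contacts through Eph receptor tyrosine kinases, and Slits are secreted and act through Robo receptors. In the developing urinary tract, Slit2 and Robo2 are known for limiting where the ureteric bud grows out. Rbpj is the transcription factor that binds DNA for Notch signalling, and Efnb2 is an arterial gene known to depend on Notch.

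Some results below are set beside what a probe's sequence holds. The stretches that follow, of at most 30 bases and read on the probe's own strand from 5′ to 3′ as deposited, are of the probes that stood highest on both arrays and of those that went opposite ways, with the other probes of the latter genes. Capitals mark a run of GT repeats. Coordinates are mm9, per the file headers, and the exon or untranslated region that each probe lies in was not analysed here.
Plxna2, chr1:196642958-196643017, plus strand: catgtacctattgtaaatatgaaactccta
Plxnb3, chrX:71017572-71017631, plus strand: aaagtgactgacctgtgaactagggccaca
Epha5, chr5:84487348-84487407, minus strand, bases 27 to 56: gaaattGTGTGTGTGTGTGTGTGTgcgtgc
Epha5, chr5:84494886-84494945, minus strand: gtaccatttattacctataaatatcatagt
Epha5, chr5:84483837-84483896, minus strand: gttcccatctgcatttgtttgtgctttcag
Sema6d, chr2:124491609-124491668, plus strand, bases 31 to 60: agaggggcgaGTGTGTGTGTGTGTGTGTGT
Sema6d, chr2:124490948-124491007, plus strand: taaagaggacaccatccttaaaacctgatg
Sema4c, chr1:36605998-36606057, minus strand, bases 1 to 30: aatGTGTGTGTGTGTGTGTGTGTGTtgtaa
Ephb3, chr16:21223165-21223224, plus strand, bases 30 to 59: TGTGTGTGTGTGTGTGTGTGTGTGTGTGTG

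Across the arrays as a whole, 67.7% to 70.1% of the spots of a channel were well above background, and 20495 genes passed the filter. Rbpj, the targeted gene, had log2 ratios of Rbpj-cKO over control of -1.13 on replicate 1 and -0.63 on replicate 2 (limma adjusted p = 0.776), and -0.48 and -0.37 by its other probe. Whether these probes fall in the deleted part of the gene was not analysed here. The ratios of the arrays ran against each other across all genes (Pearson's r = -0.352, a description with no p, since genes share their samples), and for 30.8% of genes both ratios had the same sign. The female Rbpj-cKO channel carried signal of Y-linked genes: Ddx3y stood at 456 there against 57.9 in the female control and 4674 in the male Rbpj-cKO channel, and Eif2s3y at 812 against 112 and 7685. What this signal does to the ratios of replicate 2 was not tested, and the value of replicate 1 stands apart from that of replicate 2 for each gene described below. A gene has 2 ratios in all, so limma weighs its own spread (1 degree of freedom) with that of all genes (5.57 prior degrees of freedom). The p-values thus cover the spread between these samples alone.

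Among the 57 measured axon guidance genes, 0 had a limma adjusted p under 0.05, as for 0% of all 20495 genes tested. At an unadjusted p under 0.05 there were 3, Plxna2, Plxnb3 and Efna5, all higher in Rbpj-cKO, or 5.26% against 1.82% of all genes. Median centring without loess left 0 of these 3, and Efna5 was also lost with the scanner software's processed signals, with the authors' deposited table and with no filter on dim probes, where Sema5b came in its place. Genes at least 1.5-fold higher on both arrays numbered 0, against 0.132% of all genes, and genes at least 1.5-fold lower on both also 0, against 0.0634%. At the milder bound of 1.2-fold, 2 genes (3.51%), Plxna2 and Plxnb3, were higher on both arrays, against 0.883% of all genes, and 0 were lower, against 0.395%. In bulk tissue, more cells of a type and more RNA per cell cannot be told apart.

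With no bound on size, 14 of the 57 genes (24.6%) were higher in Rbpj-cKO on both arrays, where 16.1% of all genes were. Another 5 (8.77%) were lower on both, where 14.7% of all genes were, and 38 (66.7%) had opposite signs, near the 69.2% of all genes. The median of the genes' mean log2 ratios was 0.05, against -0.0033 for all genes (0.06 on replicate 1 alone and -0.02 on replicate 2 alone). The means ran from -0.20 for Sema6b to 0.46 for Plxna2. By kind of protein, 8 of the 26 measured receptors and co-receptors stood higher on both arrays and 2 stood lower, and of the 31 ligands 6 were higher and 3 lower.

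**Figure D1:**
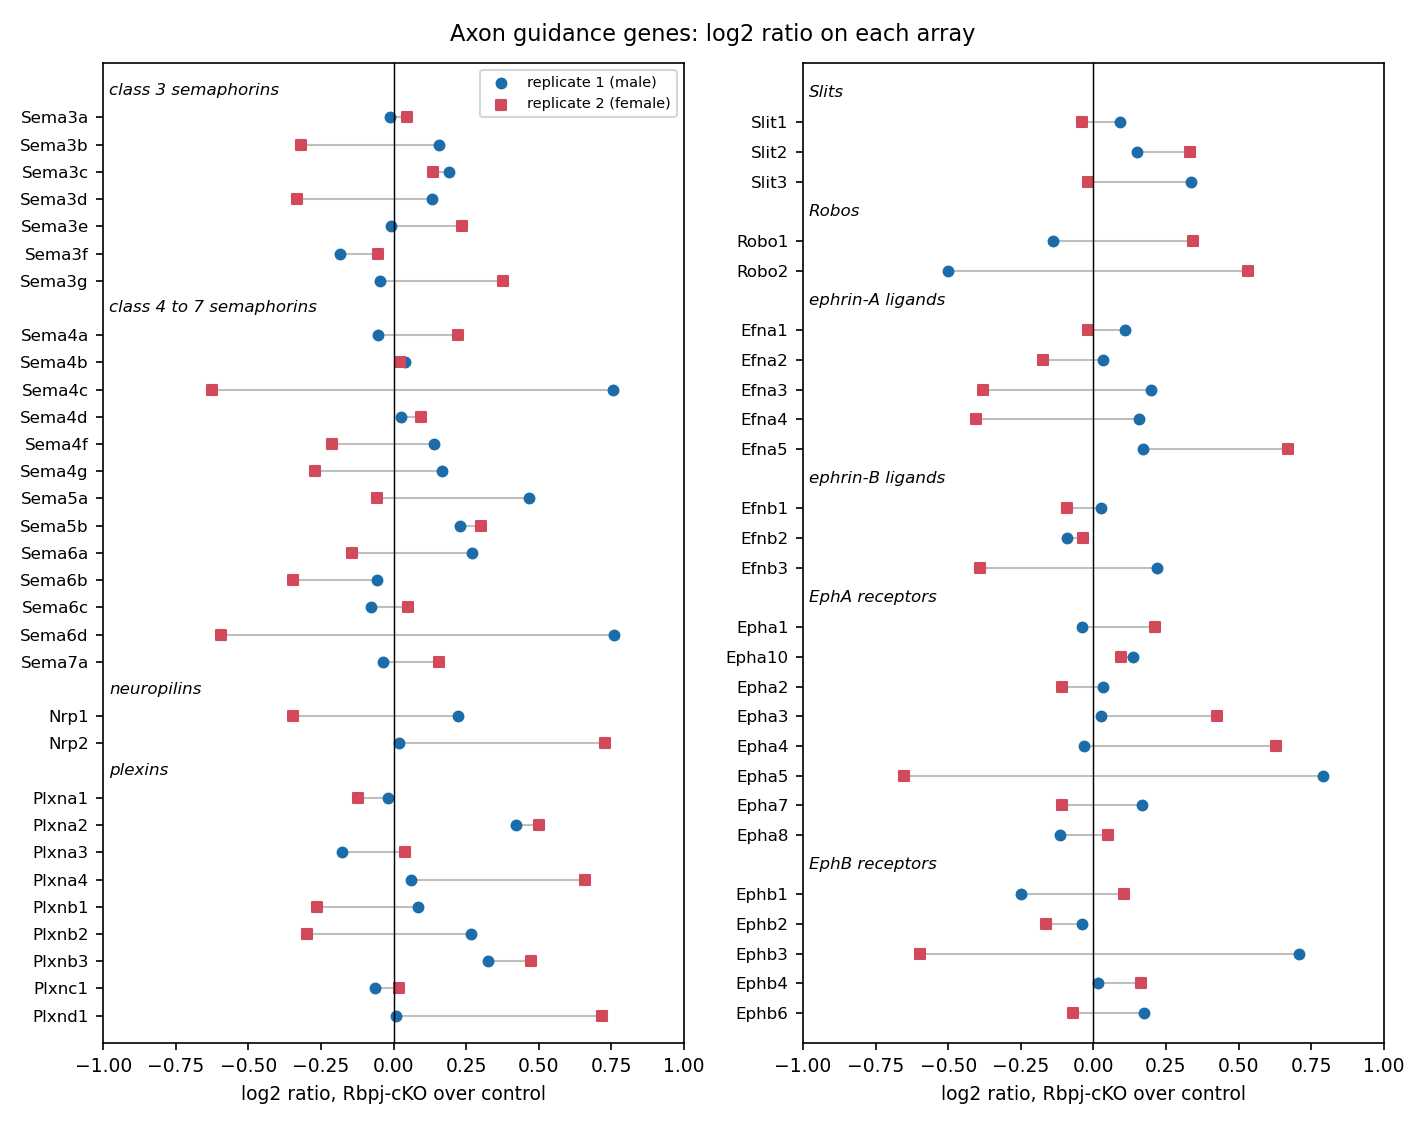
Log2 ratio of Rbpj-cKO over control (horizontal axis) of the 57 measured axon guidance genes, grouped by role, on replicate 1 (male, blue circles) and replicate 2 (female, red squares), with a grey line joining the values of a gene. Plxna2 and Plxnb3 are the genes with both points beyond 1.2-fold to the right, while Epha5, Ephb3, Sema4c and Sema6d have the longest lines, from 0.71 or more down to -0.59 or less.

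The secreted class 3 semaphorins lay close to equal signal. Of the 7 genes, on both arrays 1 was higher and 1 lower, and 5 differed in sign between them, with a median mean log2 ratio of 0.02. Sema3c, known for guiding neural crest cells into the heart's outflow tract, was the higher one. Its control signal of 21102 stood against 24074 in Rbpj-cKO on replicate 1, and 19891 against 21873 on replicate 2. Signals are linear values after background correction and normalization within the array, and only the channels of the same probe and array can be set against each other. The log2 ratios of Sema3c were thus 0.19 and 0.14 (mean 0.16 ± 0.038 SD, n = 2, with a limma 95% confidence interval of -0.15 to 0.48), and its other probe gave 0.15 and 0.28. All 4 ratios of Sema3c were above 0 and none reached 1.5-fold.

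Sema3f, a repellent cue read through Nrp2, was the class 3 gene lower on both arrays, at 8614 in Rbpj-cKO against 9786 in control on replicate 1 and 8360 against 8672 on replicate 2. Its mean log2 ratio of -0.12 ± 0.093 (SD, n = 2) had a limma 95% confidence interval of -0.44 to 0.20, which spans 0. Sema3a, the repellent of many sensory and sympathetic axons, had ratios of -0.01 and 0.04, and its dimmer probe -0.0017 and 0.01. Its 4 ratios thus lay within 1.2-fold of equal signal on either side. Sema3b (0.16 and -0.32) and Sema3d (0.13 and -0.33) were higher on replicate 1, whereas Sema3g (-0.05 and 0.38) and Sema3e (-0.01 and 0.24) were higher on replicate 2.

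Semaphorins of classes 4 to 7 held 13 measured genes, 3 of them higher and 1 of them lower on both arrays, and their median mean log2 ratio was 0.06. Sema5b, a transmembrane semaphorin with thrombospondin repeats, had the highest mean of the ligands other than Efna5. It stood at 1859 in Rbpj-cKO against 1585 in control on replicate 1, and at 2282 against 1853 on replicate 2. The ratios of 0.23 and 0.30 gave a mean of 0.26 ± 0.050 (SD, n = 2), with a limma 95% confidence interval of -0.05 to 0.58. Its other probes gave 0.15 and 0.16, and -0.11 and 0.30, so 5 of the 6 ratios of Sema5b were above 0. The other genes of the classes higher on both, Sema4b and Sema4d, had ratios of 0.04 and 0.02, and of 0.03 and 0.10.

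Sema6b, a ligand of plexins of the A class, was the lowest of all 57 genes by its mean. Its signal was dim, at 324 in Rbpj-cKO against 337 in control on replicate 1 and 256 against 326 on replicate 2. The ratios of -0.06 and -0.35 gave a mean of -0.20 ± 0.21 (SD, n = 2), so the spread between the arrays was as large as the mean. Sema5a had a ratio of 0.47 on replicate 1 and -0.06 on replicate 2. Sema4c and Sema6d were among the genes that went opposite ways by a wide margin.

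Plexins held the largest ratios that both arrays shared, and Plxna2 had the highest mean of the 57 genes. Plxna2 encodes a receptor of class 3 semaphorins, with neuropilins, and of class 6 semaphorins. Its probe read 11342 in Rbpj-cKO against 8475 in control on replicate 1, and 12403 against 8766 on replicate 2. On each array the Rbpj-cKO signal was the higher one. The log2 ratios of 0.42 and 0.50 gave a mean of 0.46 ± 0.057 (SD, n = 2), or 1.38-fold, with a limma 95% confidence interval of 0.15 to 0.77 (unadjusted p = 0.0107, adjusted p = 1). The SD of the 4 spots was 0.028 on replicate 1 and 0.078 on replicate 2, which covers measurement error within an array only.

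Plxnb3, a plexin that binds Sema5a and is best known from the nervous system, was higher on both arrays from a dim probe. It read 222 in Rbpj-cKO against 178 in control on replicate 1, and 199 against 143 on replicate 2. Here too the Rbpj-cKO signal was the higher one on each array, and all 4 spots were well above background in every channel. The ratios of 0.32 and 0.47 gave a mean of 0.40 ± 0.11 (SD, n = 2), or 1.32-fold, with a limma 95% confidence interval of 0.08 to 0.72 (unadjusted p = 0.0215, adjusted p = 1). The spots of this probe scattered more than those of Plxna2, with an SD of 0.15 on replicate 1. With the scanner software's processed signals the mean of Plxnb3 was 0.67, and it was 0.70 by the authors' deposited table. Neither gene had another probe on the array. The gene lies on the X chromosome, and the groups compared on an array share their labelled sex.

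Plxna4 and Plxnd1 stood high on replicate 2 alone. Plxna4, a receptor for class 3 semaphorins in sensory and sympathetic neurons, had signals of 1672 in Rbpj-cKO against 1605 in control on replicate 1, and 1752 against 1110 on replicate 2. Its ratios were 0.06 and 0.66. Plxnd1, the receptor of Sema3e in endothelium, read 28496 against 28336 on replicate 1 and 36470 against 22167 on replicate 2, or 0.01 and 0.72. For both genes the mean (0.36 for each) had a limma 95% confidence interval that reached below 0. The other probe of Plxnd1 had the reverse pattern, with 0.43 on replicate 1 and -0.01 on replicate 2, so its probes share a mean above 0 but not the array that gives it.

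The remaining plexins gave smaller means, between -0.09 and -0.02. Plxna1, a partner of neuropilins, was the plexin lower on both arrays, at -0.02 and -0.12. Plxnb1 (0.08 and -0.26) and Plxnb2 (0.27 and -0.30), receptors of class 4 semaphorins, had a ratio above 0 on replicate 1 and below 0 on replicate 2. Plxna3 (-0.18 and 0.04) and Plxnc1 (-0.06 and 0.02) ran the other way.

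The neuropilins, co-receptors of class 3 semaphorins and of vascular endothelial growth factor, differed from each other. Nrp2 read 12274 in Rbpj-cKO against 12127 in control on replicate 1, and 14902 against 9008 on replicate 2. These are log2 ratios of 0.02 and 0.73, and its other probe gave 0.21 and 0.40. All 4 ratios of Nrp2 were above 0, with a mean of 0.37 ± 0.50 (SD, n = 2) for the brighter probe and 0.31 for the other. Nrp1, the neuropilin of arterial endothelium and of Sema3a, had 0.22 and -0.35, a mean of -0.06 ± 0.40 (SD, n = 2).

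Of the 3 Slits, Slit2 was higher on both arrays and the others had opposite signs. Slit2 read 6902 in Rbpj-cKO against 6227 in control on replicate 1, and 7645 against 6065 on replicate 2. Its ratios of 0.15 and 0.33 gave a mean of 0.24 ± 0.13 (SD, n = 2), or 1.18-fold, with a limma 95% confidence interval of -0.08 to 0.56. On each array the Rbpj-cKO signal of Slit2 was thus the higher one. Slit3, a Slit expressed in mesenchyme and diaphragm, had 0.34 and -0.02, and Slit1, the Slit best known from the brain, 0.09 and -0.04.

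Their receptors ran the other way on replicate 1. Robo2, the receptor of Slit2 in early ureter and kidney formation, read 1643 in Rbpj-cKO against 2328 in control on replicate 1, and 2602 against 1798 on replicate 2. Its ratios of -0.50 and 0.53 gave a mean of 0.02 ± 0.73 (SD, n = 2). The other probes of Robo2 gave -0.39 and 0.08, and -0.16 and 0.03. All 3 probes were thus lower in Rbpj-cKO on replicate 1 and above 0 on replicate 2, by different amounts. Robo1 had -0.14 and 0.34 by its brighter probe and -0.03 and 0.01 by the other. Both probes of Robo3, the Robo of commissural axons, were at background in all channels.

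Among the ephrin-A ligands, Efna5 was the member apart from the others. Efna5, a glycosylphosphatidylinositol-anchored ligand of EphA receptors, read 8146 in Rbpj-cKO against 7238 in control on replicate 1, and 9704 against 6101 on replicate 2. Its ratios of 0.17 and 0.67 gave a mean of 0.42 ± 0.35 (SD, n = 2), or 1.34-fold, with a limma 95% confidence interval of 0.03 to 0.81 (unadjusted p = 0.0381, adjusted p = 1). The higher mean came mostly from replicate 2. The other 4 ephrin-A genes were all higher on replicate 1 and lower on replicate 2, with means from -0.12 for Efna4 (0.16 and -0.40) to 0.05 for Efna1 (0.11 and -0.02).

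The ephrin-B ligands lay below or near equal signal, with means from -0.09 to -0.03. Efnb2, the arterial ligand, read 11925 in Rbpj-cKO against 12693 in control on replicate 1, and 12938 against 13276 on replicate 2. The ratios of -0.09 and -0.04, and of -0.11 and -0.09 by its other probe, were all 4 below 0 and all within 1.2-fold. The limma 95% confidence interval of the mean of -0.06 ran from -0.38 to 0.25. Efnb1, X-linked and widely expressed in mesenchyme, had 0.03 and -0.09, and Efnb3 0.22 and -0.39.

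Of the 8 measured EphA receptors, 2 were higher on both arrays, 0 were lower on both and 6 had opposite signs. Epha3 had 0.02 and 0.42, and Epha10 0.14 and 0.10. Epha4, a receptor of both ephrin classes that acts in neurons and mesenchyme, read 2178 in Rbpj-cKO against 2227 in control on replicate 1, and 3310 against 2139 on replicate 2. Its ratios were -0.03 and 0.63, so its mean of 0.30 ± 0.47 (SD, n = 2) came from replicate 2. Epha7 had 0.17 and -0.11 by its brightest probe, 0.20 and -0.12 by the next, and 0.04 and 0.12 by the dimmest. The probe of Epha6 was at background in 3 channels and well above it on 1 spot in the fourth.

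The EphB receptors had 1 gene higher and 1 lower on both arrays out of 5. Ephb4, the venous receptor of Efnb2, read 4554 in Rbpj-cKO against 4508 in control on replicate 1, and 5772 against 5152 on replicate 2. Its ratios were 0.01 and 0.16, while its other probe gave 0.02 and -0.22. The probes of Ephb4 thus had opposite signs on replicate 2, and their means were 0.09 and -0.10. Ephb2 had -0.04 and -0.16, and Ephb1 -0.25 and 0.11.

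At least 1.5-fold in opposite directions were 4 of the 57 genes (7.02%), all with the male Rbpj-cKO channel high and the female one low, where 0.629% of all genes were. In the reverse direction there were 0, against 0.0878% of all genes. Epha5 read 7912 in Rbpj-cKO against 4572 in control on replicate 1, and 5323 against 8364 on replicate 2, ratios of 0.79 and -0.65. Ephb3 read 22896 against 14004 and then 15726 against 23812, ratios of 0.71 and -0.60. Whichever genotype carried the red dye gave the higher signal.

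The same held for Sema4c, which read 43665 in Rbpj-cKO against 25847 in control on replicate 1, and 29733 against 45877 on replicate 2, ratios of 0.76 and -0.63. Sema6d read 1262 against 746 and then 894 against 1348, ratios of 0.76 and -0.59. The 4 genes thus went apart by nearly the same amount, with the ratio of replicate 1 exceeding that of replicate 2 by 1.31 to 1.44. Epha5 encodes an EphA receptor of the nervous system, Ephb3 an EphB receptor of epithelia, Sema4c a ligand of Plxnb2 and Sema6d a ligand of Plxna1.

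**Figure D2:**
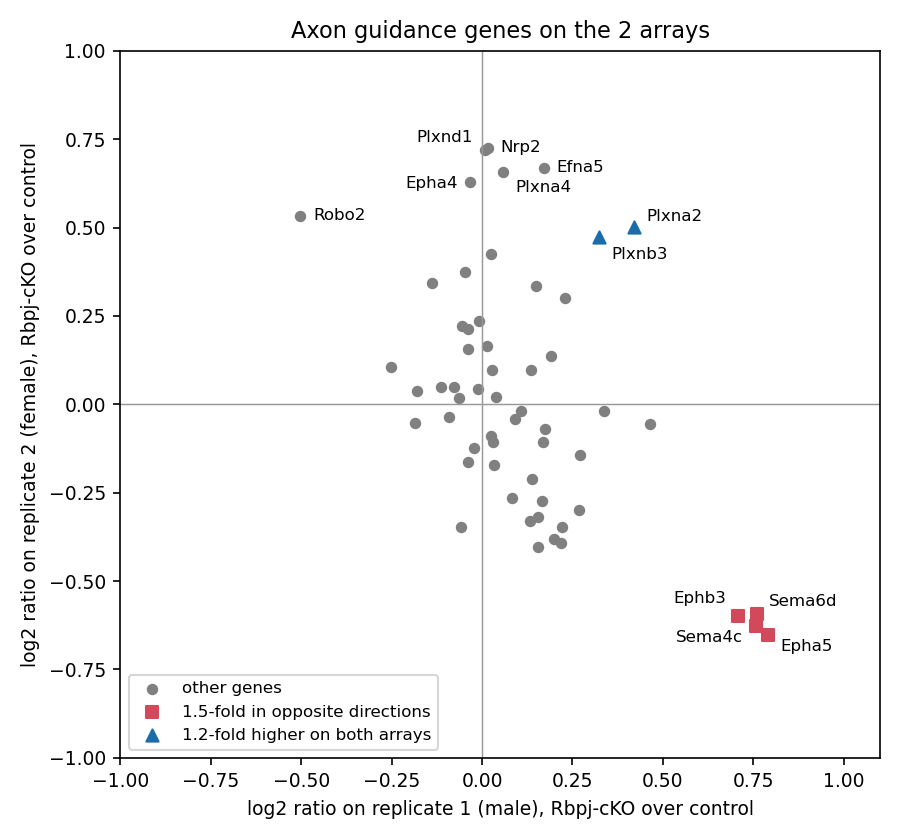
Log2 ratio of Rbpj-cKO over control on replicate 1 (male, horizontal axis) against replicate 2 (female, vertical axis), 1 point for each of the 57 measured axon guidance genes. Epha5, Ephb3, Sema4c and Sema6d (red squares) form a group of their own at 0.71 to 0.79 and -0.65 to -0.59, Plxna2 and Plxnb3 (blue triangles) are at least 1.2-fold higher on both arrays, and Efna5, Nrp2, Plxnd1, Plxna4 and Epha4 stand high on replicate 2.

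The probes of these 4 genes share the GT repeats, with 9 in a row for Epha5, 10 for Sema6d, 11 for Sema4c and 16 for Ephb3, whose run is longer than the stretch shown. This feature was looked for after the values had been seen. They were the 4 of the 79 measured axon guidance probes that held 6 or more GT in a row (GTGTGTGTGTGT on the strand of the probe). Of the other 75, 0 went 1.5-fold in opposite directions, near the 85 of 26879 among all probes with fewer than 6 GT. The other probes of Epha5 gave -0.01 and -0.06, and -0.10 and -0.03, and the other probe of Sema6d gave 0.01 and -0.05. At those probes of the same genes, without the repeats, no ratio reached 1.2-fold on either array. Ephb3 and Sema4c had no other probe.

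**Figure D3:**
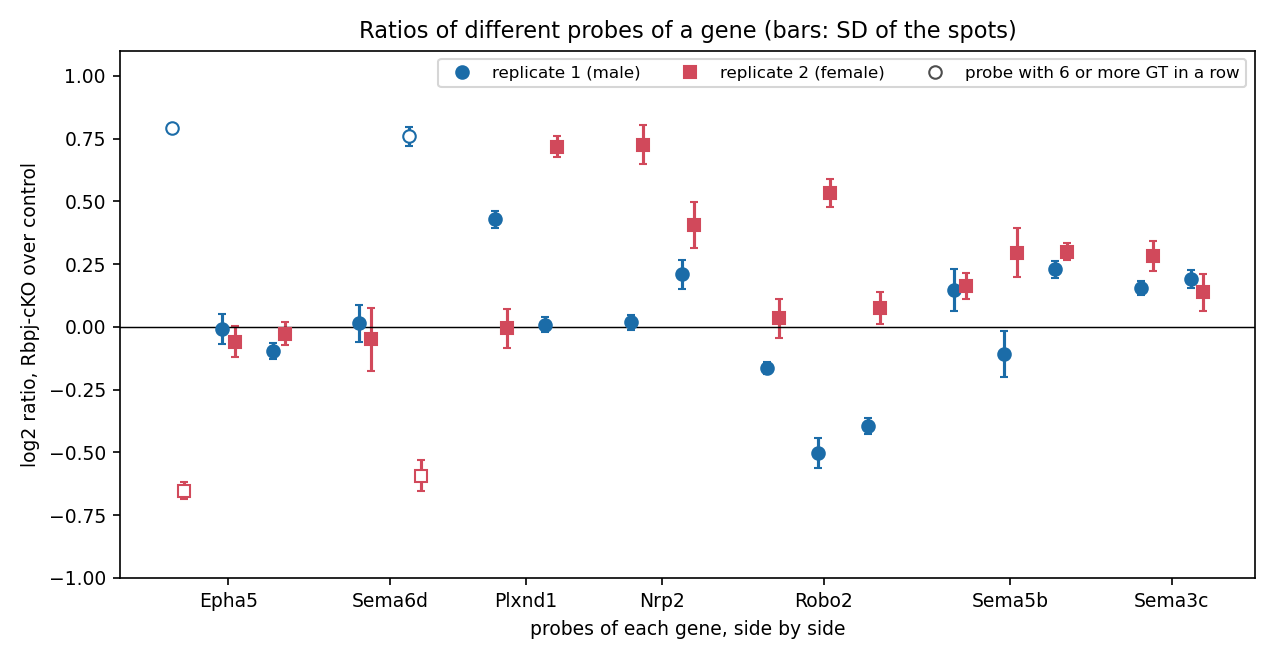
Log2 ratio of Rbpj-cKO over control (vertical axis) by each probe past the filter of 7 axon guidance genes, on replicate 1 (male, blue circles) and replicate 2 (female, red squares), with bars for the SD of the spots of a probe. Open symbols are probes with 6 or more GT in a row. For Epha5 and Sema6d these open symbols stand apart from the other probes of the gene, which lie near 0, while all probes of Sema3c and Nrp2 are above 0.

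The same was measured over all 26980 probes past the filter. Of these, 101 (0.374%) held 6 or more GT in a row, and 101 of 101 had a higher ratio on replicate 1 than on replicate 2. Their median ratios were 0.77 and -0.64, and 78 of them (77.2%) were at least 1.5-fold in opposite directions, against 0 the same way. Of all 163 probes that went at least 1.5-fold in opposite directions, these 78 made up 47.9%. The difference between the arrays was larger in longer runs. Its median was -0.0040 for the 26174 probes with up to 2 repeats, 0.15 for the 593 with 3, 0.36 for the 112 with 4 to 5, 1.32 for the 50 with 6 to 9 and 1.48 for the 51 with 10 or more.

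For runs of AC, the complement of GT, the difference was smaller. The 48 probes with 6 or more AC in a row had a median difference of 0.55, with 47 of 48 higher on replicate 1 and 0 at least 1.5-fold in opposite directions. Among the axon guidance probes, none of those past the filter had 6 or more AC in a row. Whether the repeats account for the opposite ratios of Epha5, Ephb3, Sema4c and Sema6d was not tested.

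**Figure D4:**
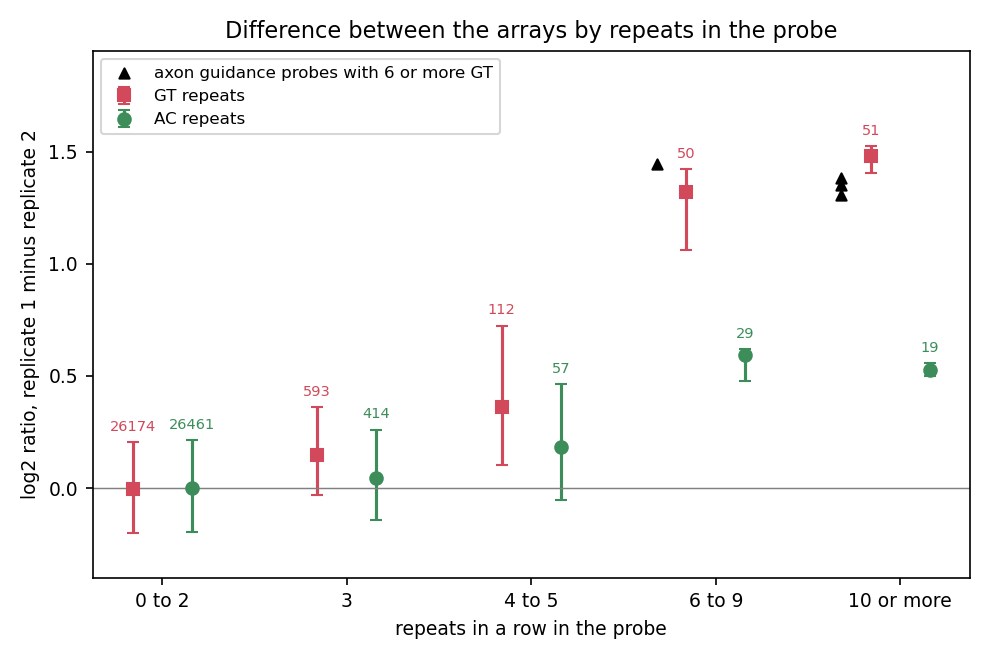
Log2 ratio of Rbpj-cKO over control on replicate 1 minus that on replicate 2 (vertical axis) by the number of GT (red squares) or AC (green circles) repeats in a row in the probe (horizontal axis), as the median with bars from the lower to the upper quartile over all probes past the filter, whose number stands above each bar. The medians for GT run from -0.0040 at 0 to 2 repeats to 1.48 at 10 or more, and the 4 axon guidance probes with 6 or more GT (black triangles) lie at 1.31 to 1.44.

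Between the ratios of the arrays, Pearson's r was -0.497 across the 57 axon guidance genes and -0.213 across the 53 whose probe held fewer than 6 GT in a row. These are descriptions, since all points share the same 2 arrays. The content of G and C in the 79 axon guidance probes ran from 26.7% to 68.3% with a median of 43.3%. Across these probes it had a Pearson's r of 0.363 with the difference between the arrays, and of 0.398 in the 75 with fewer than 6 GT in a row. Over all 26980 probes this r was 0.252.

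For 18 of the 57 genes more than 1 probe passed the filter, 40 probes in all. In 11 of these genes all probes had a mean ratio of the same sign, among them Nrp2, Plxnd1, Sema3c and Sema5b on the higher side and Efnb2 on the lower. In 7 genes, Epha5, Ephb4, Plxnc1, Robo1, Robo2, Sema4d and Sema6d, the probes' means had both signs. The means of a gene's probes differed by at most 0.19, for Ephb4. A mean over both arrays can hide wider differences on 1 array. On replicate 1 the probes of Epha5 ran from -0.10 to 0.79, and on replicate 2 those of Plxnd1 gave 0.72 and -0.01. These counts are not given here for all genes with several probes.

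The other genes of the guidance pathways were taken from a list. Of 56 listed netrins, netrin receptors, adhesion molecules and intracellular partners, 51 were measured. Of these 51, 0 passed limma's test after adjustment and 3 had an unadjusted p under 0.05, where 1.82% of all genes did. On both arrays 14 of the 51 stood higher, where 16.1% of all genes did, and 4 of the 51 stood lower, where 14.7% did. The other 33 had a different sign on each. The median of their mean log2 ratios was 0.04. At least 1.2-fold the same way were Cntn1 and Nfasc on the higher side, 2 of the 51, where 0.883% of all genes were. Ntn1 was on the lower side, 1 of the 51, where 0.395% of all genes were.

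Cntn1, a contactin of axons, had 0.47 and 0.92, and Nfasc, neurofascin of axon initial segments and nodes, 0.39 and 0.52. Both are adhesion molecules of neurons. Unc5a, a repulsive netrin receptor, had 0.64 and 0.12, and Mical1, an actin-oxidising enzyme downstream of plexins, 0.21 and 0.31. On the lower side, Ntn1, the netrin cue itself, had -0.35 and -0.58, and -0.15 and -0.14 by its other probe, all 4 below 0. Ntn3 (-0.01 and -0.29), the exchange factor gene Vav2 (-0.10 and -0.18) and the Robo partner Srgap1 (-0.07 and -0.05) had smaller ratios. On probes with GT repeats in this list, Arhgef15 (10 in a row) had 0.79 and -0.70, and Dpysl5 (5 in a row) 0.70 and -0.58. They were named after their values were seen.

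Most markers of neurons and sympathoadrenal cells stood higher in Rbpj-cKO on both arrays, by amounts that often differed between the arrays. Of 14 such genes, all measured, 10 were higher on both arrays, where 16.1% of all genes were, and 0 lower, where 14.7% were. At least 1.2-fold higher on both were 6 of the 14, where 0.883% of all genes were. By limma, 7 of the 14 had an unadjusted p under 0.05, where 1.82% of all genes did, and 0 an adjusted p under 0.05. Their median log2 ratios were 0.26 on replicate 1 and 0.91 on replicate 2. They ranged from -0.70 for Prph to 2.83 for Chgb on replicate 1, and on replicate 2, where the lowest was 0.23, 14 of 14 were above 0. Of 6 glial and neural crest genes, 4 were measured and 4 were higher on both arrays (medians 0.15 and 0.44), where 16.1% of all genes were. Although the median was higher on replicate 2, Th (1.55 and 0.23), Dbh (1.83 and 0.70), Chga (2.11 and 0.95) and Chgb (2.83 and 0.77) were higher on replicate 1, and Stmn2 had 0.45 on each. On replicate 2, Efna5, Nrp2, Plxna4, Plxnd1 and Epha4 were the 5 axon guidance genes at least 1.5-fold higher in Rbpj-cKO by their brightest probe. The share of all genes at this bound on replicate 2 alone is not given here. On replicate 2 the other probe of Nrp2 gave 0.40 and that of Plxnd1 -0.01, both under 1.5-fold. The part of nerve cells in the ratios of these 5 genes, and of Plxna2, Plxnb3, Cntn1 and Nfasc, was not tested.

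Of the other cell types the dissected ureter can hold, 9 endothelial genes had medians of 0.11 and -0.03, with 2 higher and 2 lower on both arrays. The 6 genes of the ureteric mesenchyme had medians of 0.05 and -0.15, the 5 smooth muscle genes 0.04 and -0.31, and the 8 urothelial genes -0.07 and -0.04. All markers of these 4 lists passed the filter. At least 1.2-fold lower on both arrays were 2 of the 5 smooth muscle genes, Myocd (-0.67 and -1.04) and Cnn1 (-0.29 and -0.31). So were 2 of the 8 urothelial genes, Krt5 (-0.36 and -1.25) and Cldn4 (-0.53 and -0.58), where 0.395% of all genes were. Neither list had a gene at least 1.2-fold higher on both, where 0.883% of all genes were. Unadjusted p by limma was under 0.05 for 1 of the 5 and 2 of the 8, against 1.82% of all genes. Striated muscle (6 genes, 0.24 and -0.93) and erythroid genes (5 genes, 0.25 and -0.59) were all above 0 on replicate 1 and all below 0 on replicate 2. Macrophage genes (5 genes, 0.49 and 0.04) and mesothelial genes (4 genes, 0.67 and 0.09) had their higher medians on replicate 1, and the 3 measured nephron genes of 4 had -0.13 and 0.51. The part of these cells in the ratios of the axon guidance genes was not tested either.

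Promoters were searched for GTGGGAA, the core sequence that Rbpj binds, on either strand (TTCCCAC being its reverse complement). The windows ran from 250 bases before to 50 after each start in RefSeq, on GRCm38.p6. Of the 59 axon guidance genes, 52 had an entry, and 2 of these (3.85%), Epha7 and Plxnb2, held the letters, against 7.25% of 27025 genes. By window, 3 of 68 (4.41%) held them, against 6.38% of all windows, and the windows of Epha7 share the same match. Efnb3, Plxna1, Plxna4, Sema3b, Sema3f, Sema6a and Slit1 were not matched. The matches, with the motif in capitals, are printed because Rbpj is the factor removed.
Epha7, motif at chr4:28813037-28813043, plus strand: cgccccccggccGTGGGAAtcgccgcctag
Plxnb2, motif at chr15:89180873-89180879, minus strand: agccgcccctccTTCCCACcctctacccct
By its brightest probe, neither gene had the same sign on both arrays, with 0.17 and -0.11 for Epha7 and 0.27 and -0.30 for Plxnb2.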

How the data were processed

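The deposited mean and local background median intensities of both channels are linear scanner values, not normalized, per the file headers. The deposited log10 ratio of each spot is red over green of the software's processed intensities, per the file headers. Flags deposited per spot are other values of 0 or 1. Spots were read with Agilent Feature Extraction 10.7.3.1 (submitters' processing notes). The authors' series table was read as a signed linear fold change. How it was made is not stated, and it served as an alternative only.

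Intensities were background-corrected with normexp (offset 50) and normalized by loess within each array, control spots having weight 0, in limma 3.58.1 under R 4.3.3. Outlier-flagged spots (3.57% and 3.90%) were removed, 0 spots were saturated, and the spots of a probe were averaged. Ratios were turned to Rbpj-cKO over control by the labelled dyes. The brightest probe past the filter stood for a gene. Each gene was tested against 0 with lmFit and eBayes (two-sided, Benjamini-Hochberg adjustment over 20495 genes, 1 residual and 5.57 prior degrees of freedom), after the procedure was tested on simulated data. The number of arrays limits the precision.

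The members and lists were chosen with earlier results of these data known, so their counts are descriptions. The genes named are those 1.5-fold or more the same way on each array (none), the 8 highest and 8 lowest means of one sign (5 were lower), the 6 widest apart in opposite directions, 17 fixed ligands and receptors, genes whose probes differ in sign by over 0.3 (none), 4 highest and 4 lowest of the pathway list, and Rbpj. Other genes are given with values to fill a role group and were named after their values were seen. The RefSeq table is on another build than the arrays and was used for names and promoters only. Alternatives were 10 other settings and leaving out each array. Some list members are not reported here.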

Additional observations from a re-analysis of the deposited data

Results flagged for a closer look

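In 4 axon guidance genes the probe standing for the gene went at least 1.5-fold in opposite directions on the male and the female array. The male log2 ratio exceeded the female one by 1.44 for Epha5, 1.38 for Sema4c, 1.35 for Sema6d and 1.31 for Ephb3. With 1 array per sex this difference was not tested, and sex and dye orientation cannot be told apart. All 4 values belong to probes with 6 or more GT repeats in a row. At the other probes of Epha5 and Sema6d, without these repeats, no ratio reached 1.2-fold on either array. Ephb3 and Sema4c had no other probe.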

How the results depend on the processing

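The number of axon guidance genes with a limma adjusted p under 0.05 was 0 in each alternative fit. Centring each array on its median without loess gave 4 genes at least 1.2-fold higher on both arrays (Efna5, Plxna2, Plxnb3, Plxnd1) and left 0 at an unadjusted p under 0.05. It moved the medians of all genes to 0.12 on replicate 1 and -0.13 on replicate 2, and Sema3a to -0.00059. In all other settings that used both arrays the 1.2-fold higher genes were Plxna2 and Plxnb3. With the mean of a gene's probes, 2 genes went 1.5-fold in opposite directions, and Epha5 (-0.0088), Robo2 (-0.070) and Ephb4 (-0.0044) turned below 0, while Sema5b moved to 0.17 and Ntn1 to -0.31. Leaving out probes with 6 or more GT in a row, an alternative chosen after seeing the data, left 0 such genes of 55, with Epha5 at -0.062 and Sema6d at -0.018. Of 358 values of 36 named genes under 10 settings, 352 kept their sign, though the mean of Plxnb3 was 0.67 with the scanner software's processed signals and 0.70 with the authors' deposited table. By single arrays, the genes 1.5-fold higher numbered 4 to 5 and lower 0 to 4. The 4 higher on replicate 1 were also the 4 lower on replicate 2, Epha5, Ephb3, Sema4c and Sema6d. Their probes held 6 or more GT in a row. Those 1.2-fold higher numbered 10 to 13 and lower 1 to 14, and the median ran from -0.018 to 0.059. The shares of all genes at these bounds on single arrays are not given here. Single arrays gave both signs for Epha5 (-0.65 to 0.79), Sema4c (-0.63 to 0.76), Sema6d (-0.59 to 0.76), Ephb3 (-0.60 to 0.71), Robo2 (-0.50 to 0.53), Epha4 (-0.032 to 0.63), Sema3a (-0.012 to 0.044), Nrp1 (-0.35 to 0.22), Efnb1 (-0.090 to 0.026), Epha7 (-0.11 to 0.17), Slit3 (-0.018 to 0.34) and Robo1 (-0.14 to 0.34). The test of within-array ratios is itself the paired comparison of the genotypes. To this test, no further block on the replicate number can be added, since each number holds 1 ratio. Dim probes such as those of Plxnb3 and Sema6b limit what the ratios can show.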
